A study of Mus musculus with 53 samples.

Results

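Anti-PD-L1 was compared with an isotype control antibody in WGD- tumours, tumours of the TA3 Hauschka mouse mammary tumour line whose genotype is labelled as without whole genome doubling (WGD). The members are the 6 bulk RNA-seq libraries whose titles name WGD- tumours in A/J mice under either antibody, 3 under anti-PD-L1 and 3 under isotype, of 53 libraries in the series. All 6 came from tumours grown from cells placed with 50% Matrigel in the inguinal mammary fat pad of female A/J mice aged 6 weeks, a strain with an intact immune system, and all were collected as whole tumours; the labels give collection on day 8 or day 14 without saying which applies to these. The same experiment holds the matching WGD+ tumours, 3 libraries under each of isotype, anti-PD-L1 and anti-CD8, and the WGD- tumours under anti-CD8, with 2 libraries, for 17 libraries in 6 groups. No antibody clone, dose, schedule or tumour size is given in the sources used here. The labels do not say that replicates are separate animals, so p-values measure only the spread between these libraries, which may be partly technical.

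PD-L1 (gene Cd274) is a membrane protein of tumour and myeloid cells that binds the receptor PD-1 (gene Pdcd1) on activated T cells and damps signalling through the T cell receptor. Antibodies to PD-L1 block that contact. Interferon-gamma released by T and NK cells induces Cd274 itself, the chemokines Cxcl9, Cxcl10 and Cxcl11 that draw T cells, and the genes of antigen presentation, so that the levels of these genes in bulk tissue follow how inflamed a tumour is. An effect of an antibody on RNA in whole tumours can come from more or fewer cells of a type or from a change per cell, and bulk values cannot tell these apart.

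The 6 libraries held 9.70 to 15.5 M (mega) assigned reads, and 1 read was worth 0.0623 to 0.104 CPM, the depth-scaled read count. Levels are log2(CPM + 1) as deposited, and a difference is the anti-PD-L1 mean minus the isotype mean on that scale, with the standard error (SE) of the fit. On this scale the difference of a low gene is smaller than the log2 ratio of its CPM. A gene was called at a limma adjusted p under 0.05 over 13840 genes. No 2 libraries were identical. Of the 15 keratin and epithelial genes listed, 13 passed the filter on low values, and Krt8 lay between 8.96 and 10.11 in the 6 libraries, so the tissue carries the markers of an epithelial tumour.

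Anti-PD-L1 tumours differed from isotype tumours beyond the spread between libraries in 1 gene of 13840 (0.00723%), the apolipoprotein gene Apoc1, which fell. At an unadjusted p under 0.05 there were 521 genes (3.76%), 365 higher (2.64%) and 156 lower (1.13%). The median difference over all genes was -0.01. The anti-PD-L1 libraries also differed more among themselves: the median SD of a gene was 0.287 over the anti-PD-L1 libraries and 0.201 over the isotype libraries. Of the 13840 genes 9347 had the larger SD under anti-PD-L1. In the WGD+ tumours the order was reversed, with a median SD of 0.207 under anti-PD-L1 and 0.265 under isotype. The library of anti-PD-L1 replicate 3 correlated with isotype replicate 1 at r = 0.993 across genes and with anti-PD-L1 replicates 1 and 2 at 0.964 and 0.972. Across genes these are descriptions of the libraries, since genes are not independent replicates.

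Apoc1 encodes a small apolipoprotein of circulating lipoprotein particles and is made by liver and by macrophages (ENSMUSG00000040564.14, chromosome 7, 19689481 to 19692660 in mm10, minus strand). Its levels were 2.75, 3.56 and 2.79 in isotype replicates 1, 2 and 3, and 1.06, 0.86 and 0.61 in anti-PD-L1 replicates 1, 2 and 3, the order used for all values below. All 3 anti-PD-L1 libraries lay under all 3 isotype libraries with a gap wider than either group's range. In CPM the isotype libraries held 5.75, 10.8 and 5.92 and the anti-PD-L1 libraries 1.09, 0.813 and 0.531, which rest on 70, 174 and 57 reads against 13, 9 and 7. The isotype mean was 3.04 ± 0.46 and the anti-PD-L1 mean 0.84 ± 0.22 (SD, n = 3 each), a difference of -2.19 (SE 0.27, limma adjusted p = 0.00499). The ratio of mean CPM was 9.25 of isotype over anti-PD-L1. The call held when each library was left out in turn (adjusted p 0.0142 to 0.0439), but not when only the 6 libraries entered the fit (0.984), on log2(CPM + 0.25) (0.198) or with voom on the recovered reads (0.122).

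**Figure D1:**
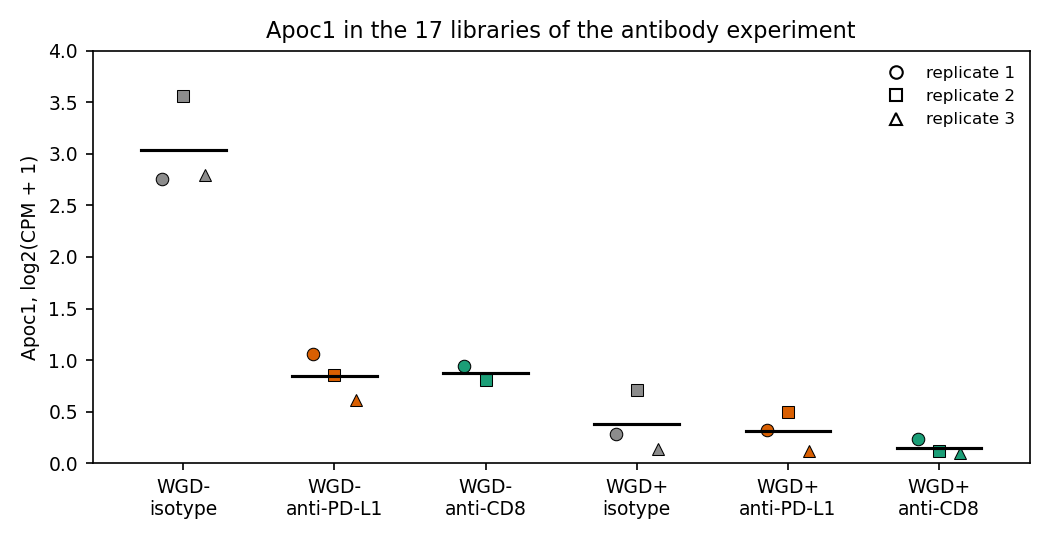
Level of Apoc1, log2(CPM + 1), in each of the 17 libraries of the antibody experiment by genotype and treatment; symbols are replicates and bars group means. The 3 WGD- isotype libraries lie at 2.75 to 3.56 and every other library lies at or under 1.06.

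In the plot of Apoc1 by group the WGD- isotype libraries lie above all the others. The 2 WGD- anti-CD8 libraries lay at 0.95 and 0.80, also apart from the same isotype libraries (-2.16, SE 0.30, limma adjusted p = 0.025), and the WGD+ libraries lay at or under 0.71 under each antibody. Apoc1 was also read in the WGD- A/J tumours of the other experiments, whose tables were normalized separately and so allow no test against these. It lay at 0.89, 5.69 and 2.47 in tumours given vehicle, at 0.99, 2.77 and 0.28 in tumours collected on day 14 and at 3.79, 0.52 and 1.59 in tumours collected on day 8. Replicates of a single treatment there spanned levels from both sides of the gap between isotype and anti-PD-L1. Whether the difference found here comes from the antibody or from such spread between tumours was not tested.

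Among the same libraries of the other experiments Alb, the albumin gene of hepatocytes, was at 3.48, 10.04 and 6.01 under vehicle, at 0, 0.33 and 0 on day 14 and at 1.21, 0 and 0.12 on day 8. In each of these groups the library highest in Apoc1 was also the highest in Alb, and the part of liver RNA in Apoc1 was not tested. Within the 6 libraries compared here, Alb lay at 0.22, 8.26 and 1.72 under isotype and at 1.00, 0.24 and 2.67 under anti-PD-L1. Isotype replicate 2 was again highest in both genes, and isotype replicate 1 had the lowest Alb of the 6. Apoe, the apolipoprotein gene beside Apoc1 on chromosome 7 (19696109 to 19699188) and abundant in macrophages, had levels of 8.39, 9.18 and 10.33 under isotype and 10.96, 10.75 and 8.59 under anti-PD-L1. Those values overlap and the 2 highest are anti-PD-L1 libraries. Of 10 liver secretory genes 9 had values and 3 passed the filter. Summed over the 9, CPM was 486 to 965 under isotype and 589 to 736 under anti-PD-L1. The sum was 486 in isotype replicate 1, where Alb lay at 0.22. Members other than Alb carry it there, so the sum cannot be read as a measure of hepatocyte RNA.

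Genes of the PD-1 axis itself overlapped between the groups. Cd274 (chromosome 19, 29367455 to 29388095) had levels of 4.70, 5.24 and 5.66 under isotype and 6.0, 6.54 and 4.01 under anti-PD-L1. Anti-PD-L1 replicates 1 and 2 were thus the highest of the 6 and replicate 3 the lowest, and the difference was 0.32 (SE 0.73, limma adjusted p = 0.969). Pdcd1, the gene of PD-1, had 1.69, 2.97 and 3.01 against 2.42, 3.86 and 0.54, with the same library at the bottom. Pdcd1lg2, which encodes the second PD-1 ligand PD-L2, had 2.38, 3.44 and 2.65 against 4.46, 4.60 and 2.39 (difference 0.99, SE 0.61, adjusted p = 0.945). Cd80, a costimulatory ligand that also binds PD-L1, had 1.65, 1.93 and 1.62 against 3.05, 2.46 and 1.29. Vsir, the gene of the checkpoint protein VISTA, had 4.28, 4.88 and 5.28 against 6.36, 6.06 and 4.52. In each of these 5 genes anti-PD-L1 replicate 2 lay above all isotype libraries while replicate 3 lay inside or under their range. Of 18 checkpoint genes tested 0 were called and 0 separated the groups, with a median difference of 0.30. Without anti-PD-L1 replicate 2 it was -0.14, and without replicate 3 it was 0.83.

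Groups that do not overlap were found for 439 genes higher under anti-PD-L1 (3.17% of genes tested) and 316 lower (2.28%). Groups of 3 libraries also separate by chance, and how many of these genes do so was not tested. Those named here come from the 10 each way with the smallest p among such genes whose higher group averaged at least 3. None of the higher genes was called, each with an adjusted p of 0.945. Ctns, the lysosomal cystine transporter gene (chromosome 11, 73183596 to 73199042), had 3.30, 3.10 and 3.07 under isotype against 4.19, 4.02 and 3.61 under anti-PD-L1 (difference 0.78, SE 0.19). Acp2, the lysosomal acid phosphatase gene, had 6.31, 6.11 and 6.37 against 7.14, 6.76 and 6.52. Vipas39, which works in sorting to lysosomes, had 5.09, 5.35 and 5.15 against 5.71, 5.76 and 5.42. In these 3 genes replicate 3 was the lowest anti-PD-L1 library, and its place above every isotype library is required by the choice of genes.

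Map3k14, which encodes the kinase NIK of non-canonical NF-kB signalling, had 4.35, 4.34 and 3.65 against 4.77, 4.88 and 4.73 (0.68, SE 0.18), and here the 3 anti-PD-L1 libraries lay within 0.15 of each other. Sh3bp2, an adaptor of immune receptor signalling, had 5.21, 5.30 and 5.03 against 5.75, 5.78 and 5.54. Snx8, a sorting nexin of endosomes (chromosome 5, 140340299 to 140389262), had 5.78, 5.78 and 5.70 against 7.06, 6.36 and 6.10, so that isotype libraries were nearly equal and anti-PD-L1 libraries were not. Fchsd2, a membrane-bending protein of endocytosis, had 4.71, 4.47 and 4.52 against 6.15, 5.41 and 4.76. Cemip2, a cell surface protein linked to hyaluronan breakdown, had 5.03, 4.88 and 4.78 against 6.08, 5.34 and 5.71. For Arrdc4, an arrestin-like gene induced with glucose supply, and Amdhd2, an enzyme of amino sugar metabolism, the differences were 0.66 (SE 0.20) in both.

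Among the lower names only Apoc1 was called, and the others had an adjusted p of 0.945. Utp4, a factor of ribosomal RNA processing (chromosome 8, 106893636 to 106923088), had 6.35, 6.12 and 6.20 under isotype against 5.38, 5.56 and 5.92 under anti-PD-L1 (-0.60, SE 0.16). Ppl, the periplakin gene of epithelial junctions, had 3.42, 2.85 and 3.20 against 2.37, 2.37 and 2.39, with 3 nearly equal anti-PD-L1 libraries. Baiap2l1, an actin regulator of epithelial cells, had 5.26, 5.17 and 5.19 against 4.32, 4.66 and 4.99. Acsl3, which activates fatty acids for lipid droplets, had a difference of -0.52 (SE 0.16) and anti-PD-L1 libraries within 0.12 of each other. Ybx3, an RNA-binding protein, Gpr89, an anion channel of the Golgi, Car14, a carbonic anhydrase, and Fam213a, a redox protein, had differences of -0.38, -0.44, -0.66 and -0.82. In Utp4, Baiap2l1 and Car14 replicate 3 was the anti-PD-L1 library closest to isotype.

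A single library sets how many genes pass. Without anti-PD-L1 replicate 3, 525 genes (3.79%) were called, 414 higher (2.99%) and 111 lower (0.802%), where the remaining group of 2 libraries is judged by a spread pooled over all groups. In 392 of the 414 higher genes the level in replicate 3 lay inside or under the isotype range, and in 103 of the 111 lower genes inside or above it. With replicate 3 included only 1 gene was called, so its place in these genes follows in part from how they were picked. Leaving out any other of the 6 libraries gave 1 call each. The labels give no ground to leave this library out, and the 525 genes describe replicates 1 and 2 alone.

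Macrophage genes showed the largest positive median of the lists. Of 20 members 19 had a positive difference, 0 were called and 3 separated the groups (against 3.17% of all genes), with a median of 0.96. Mrc1, the mannose receptor of tissue macrophages (chromosome 2, 14229392 to 14332057), had 7.36, 5.98 and 6.97 under isotype and 9.86, 7.86 and 7.92 under anti-PD-L1 (1.78, SE 0.69, limma adjusted p = 0.945). Cd163, the haemoglobin scavenger receptor, had 6.23, 5.46 and 6.81 against 9.54, 7.59 and 6.98 (1.87, SE 0.84). In both genes every anti-PD-L1 library lay above every isotype library, and replicate 1 lay far above the other two. Spp1, the osteopontin gene and the remaining member that separates the groups, is named after its values were seen and had 8.14, 8.26 and 8.24 against 9.66, 8.40 and 8.88.

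Adgre1, which encodes F4/80, had 3.24, 4.22 and 4.50 against 6.37, 5.76 and 3.53, and Lyz2, a lysozyme gene of myeloid cells, had 7.10, 8.62 and 9.08 against 10.72, 10.16 and 7.06 (both named after their values were seen). Anti-PD-L1 replicates 1 and 2 were the highest libraries of the 6 and replicate 3 lay with the lowest. Anti-PD-L1 replicate 1 was the highest library in 18 of 20 macrophage genes, against 23.3% of all genes. The median was 0.44 without anti-PD-L1 replicate 1. Without replicate 3 it was 1.65, and 4 of 20 were called higher, against 2.99% of all genes. Among them were Adgre1 (2.08, SE 0.38, limma adjusted p = 0.0195) and Lyz2 (2.17, SE 0.54, adjusted p = 0.0493). That fit leaves out the lowest anti-PD-L1 library of both genes, so these calls describe replicates 1 and 2 alone. With replicate 3 included 0 of the 20 were called. Summed CPM of the list was 1623, 2356 and 3867 under isotype and 9817, 6067 and 2133 under anti-PD-L1.

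**Figure D2:**
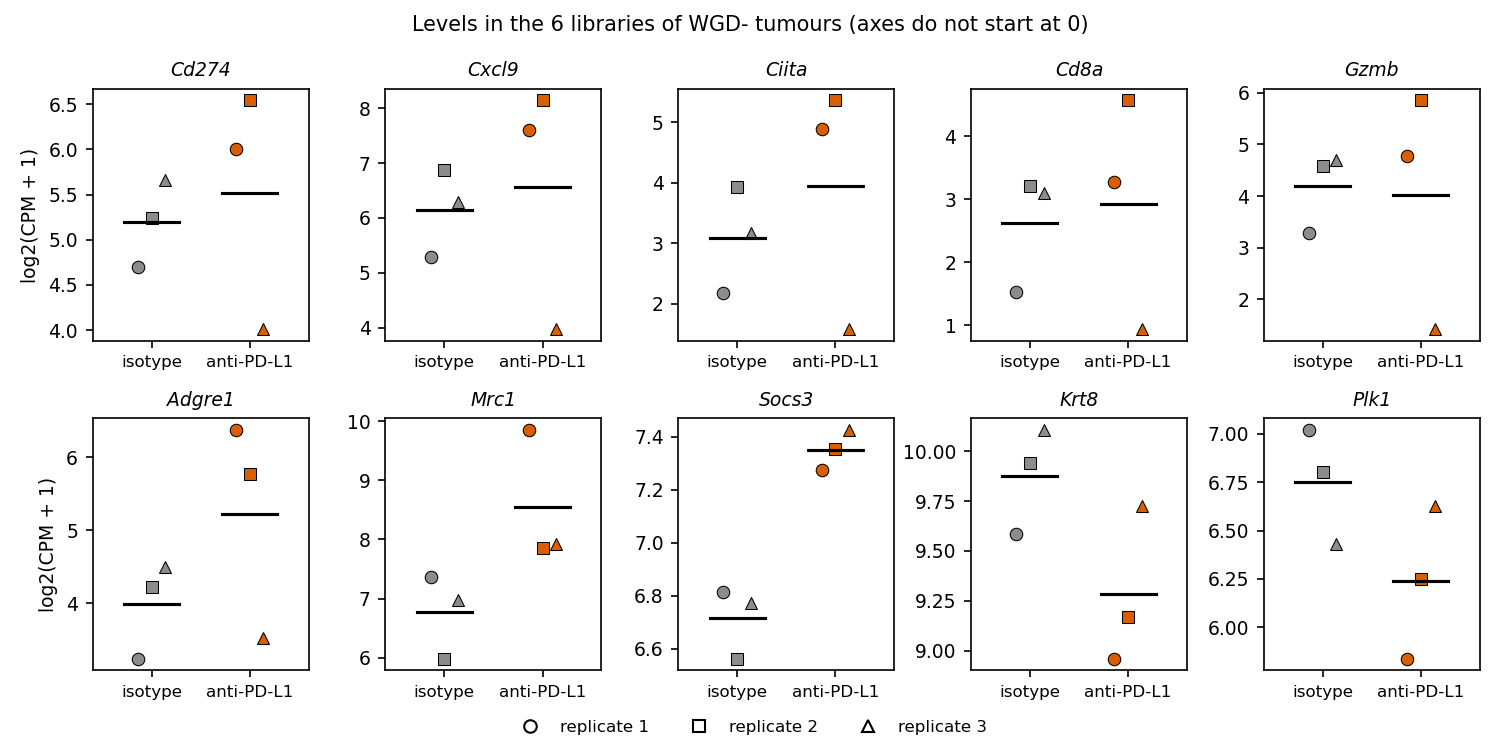
Levels, log2(CPM + 1), of 10 genes in the 6 libraries, with isotype in grey, anti-PD-L1 in orange, a symbol for each replicate and bars at group means; each panel has its own vertical range, which does not start at 0. Anti-PD-L1 replicate 3 (triangle) lies lowest for Cd274, Cxcl9, Ciita, Cd8a and Gzmb, whereas the groups separate for Mrc1 and Socs3.

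All 10 monocyte genes had a positive difference, with a median of 0.75 (0.26 without anti-PD-L1 replicate 1 and 1.39 without replicate 3). Of them 0 were called and 1 separated the groups (against 3.17% of all genes). That gene was Fn1, the fibronectin gene, at 6.64, 6.33 and 6.93 under isotype against 8.98, 7.20 and 7.87 under anti-PD-L1 (1.38, SE 0.57, limma adjusted p = 0.945). F13a1, a transglutaminase gene of monocytes and resident macrophages, had 3.63, 5.17 and 6.20 against 7.99, 6.30 and 4.44. Ccr2, the receptor that brings monocytes out of the bone marrow, was named after its values were seen and had 4.14, 4.62 and 4.11 against 6.98, 6.15 and 3.25, so replicate 3 was the lowest of the 6. Replicate 1 was highest in 8 of 10 monocyte genes.

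Dendritic cell genes had a positive difference in 10 of 10 tested members, a median of 0.29 and 0 that separated the groups. Cd209a, a lectin of monocyte-derived dendritic cells, had 1.05, 0.17 and 0.70 against 2.72, 1.34 and 0.75, and Itgae, the CD103 integrin chain, had 1.45, 1.08 and 0.50 against 1.78, 1.66 and 0.87. Both genes are low, and only replicates 1 and 2 lay above the isotype range. Neutrophil genes had 5 of 12 positive and a median of -0.02. Csf3r, the receptor for granulocyte colony-stimulating factor, had 4.54, 4.38 and 4.79 against 5.10, 5.86 and 4.73, whereas Ngp, a granule protein gene, had 2.07, 2.15 and 3.03 against 2.01, 2.12 and 1.53. Eosinophil and basophil markers could not be described, because 0 of 10 passed the filter.

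Complement genes, many of them made by macrophages and fibroblasts, had a median of 0.66 with 12 of 14 positive and 0 that separated the groups. The median was 0.10 without anti-PD-L1 replicate 1 and 1.47 without replicate 3. C3ar1 and C5ar1, the receptors for the complement fragments C3a and C5a, had 3.99, 4.31 and 4.48 against 6.44, 5.55 and 3.96, and 3.74, 4.20 and 4.42 against 6.06, 5.01 and 4.21. Replicate 3 was the exception in both receptors. Without it both were called (differences 1.74 and 1.42, limma adjusted p = 0.0169 and 0.033). They were the only 2 of 14 called, against 2.99% of all genes called higher in that fit, which describes replicates 1 and 2 alone. With replicate 3 included 0 of the 14 were called. Replicate 1 was the highest library in 12 of the 14 complement genes.

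T cell genes overlapped between the groups. Cd8a, the CD8 alpha chain, had 1.53, 3.21 and 3.10 under isotype and 3.27, 4.56 and 0.93 under anti-PD-L1 (0.31, SE 0.77, limma adjusted p = 0.971). Cd8b1, the beta chain, had 0.58, 2.53 and 2.24 against 2.33, 3.53 and 0.61. Cd3e, a chain of the T cell receptor complex named after its values were seen, had 1.79, 2.45 and 2.34 against 2.53, 3.71 and 1.04. Replicate 2 was the highest library for each of these and replicate 3 lay at or near the bottom. Lck, the kinase that starts T cell receptor signalling, had 4.21, 4.29 and 4.30 against 4.64, 5.41 and 4.01. Tcf7, a transcription factor of naive and stem-like T cells that some epithelia also express, had the opposite sign, 5.07, 5.06 and 4.76 against 4.38, 4.74 and 4.79. Of 17 T cell genes tested 13 were positive, 0 were called and 0 separated the groups, with a median of 0.23. That median was -0.31 without anti-PD-L1 replicate 2 and 0.93 without replicate 3. Replicate 2 was highest in 14 of 17 (14.9% of all genes) and replicate 3 lowest in 13 of 17 (19.5% of all genes). The spread of the list's mean level was an SD of 1.13 over anti-PD-L1 libraries and 0.40 over isotype libraries.

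Cytotoxic effector genes had a median of -0.05, with 7 of 16 positive. The sign depended on single libraries, with medians of -0.57 without anti-PD-L1 replicate 2 and 0.74 without replicate 3. Gzmb, the granzyme B gene of killer cells, had 3.29, 4.58 and 4.71 against 4.77, 5.85 and 1.42, and Ifng, the interferon-gamma gene, had 1.10, 2.85 and 2.65 against 2.28, 3.59 and 1.46 (both named after their values were seen). Replicate 2 again stood at the top in both. Gzmc and Gzmd, granzymes of strongly stimulated T and NK cells, followed another library: 4.09, 3.98 and 5.93 against 4.07, 3.13 and 3.34 for Gzmc, and 4.0, 3.43 and 6.40 against 4.13, 3.33 and 3.0 for Gzmd. Isotype replicate 3 alone was high for these 2 and their differences were -1.16 and -1.12, neither called. Gzmc and Gzmd are closely related neighbours, so reads can be split between them. All 6 NK cell genes tested were positive (median 0.27), among them the inhibitory receptor gene Klrc1 at 1.31, 2.35 and 2.21 against 2.67, 3.74 and 0.99. Replicate 3 was lowest in 14 of 16 cytotoxic and 5 of 6 NK genes. The NK median was -0.12 without replicate 2 and 0.70 without replicate 3.

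Foxp3, the transcription factor of regulatory T cells, lay at 4.75, 4.30 and 4.76 under isotype and at 4.58, 4.84 and 4.95 under anti-PD-L1 (0.19, SE 0.22, limma adjusted p = 0.945). Here replicate 3 was the highest of the 6 libraries, and the groups overlapped. Of 8 regulatory T cell genes 5 were positive, with a median of 0.22.

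Interferon-gamma response genes separated the anti-PD-L1 libraries from each other rather than from isotype. Of 23 members 0 were called and 1 separated the groups (against 3.17% of all genes). The difference was positive in 22, and the median over the list was 0.34. That median was -0.03 without anti-PD-L1 replicate 2 and 1.14 without replicate 3. Cxcl9, a chemokine gene induced by interferon-gamma (chromosome 5, 92321347 to 92328079), had 5.28, 6.88 and 6.29 under isotype and 7.60, 8.14 and 3.97 under anti-PD-L1 (0.42, SE 1.46). Gbp5, a guanylate-binding protein of antimicrobial defence, had 4.37, 5.90 and 5.33 against 6.68, 7.01 and 3.66. In these genes, named after their values were seen, both the highest pair of libraries and the lowest library are anti-PD-L1. Replicate 2 was highest in 20 of 23 and replicate 3 lowest in 20 of 23. The mean level of the list was 4.96, 6.22 and 5.89 under isotype and 6.73, 7.01 and 4.50 under anti-PD-L1, an SD of 0.66 and 1.38.

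Socs3, a feedback inhibitor of cytokine receptors that interleukin-6 also induces, had 6.81, 6.56 and 6.77 under isotype against 7.27, 7.35 and 7.43 under anti-PD-L1 (0.63, SE 0.24, limma adjusted p = 0.945), and it was the 1 member whose groups did not overlap. Its highest library was replicate 3, the library lowest for Cxcl9. Wars, the tryptophanyl-tRNA synthetase gene, had 6.20, 6.93 and 6.32 against 6.92, 6.98 and 6.47, a narrower span than the chemokines. Cxcl10 had 5.46, 6.34 and 5.74 against 6.51, 6.41 and 4.71, a difference of 0.03 (SE 0.66), and Irf1 had 7.16, 7.93 and 8.0 against 8.40, 8.63 and 7.06 (both named after their values were seen).

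**Figure D3:**
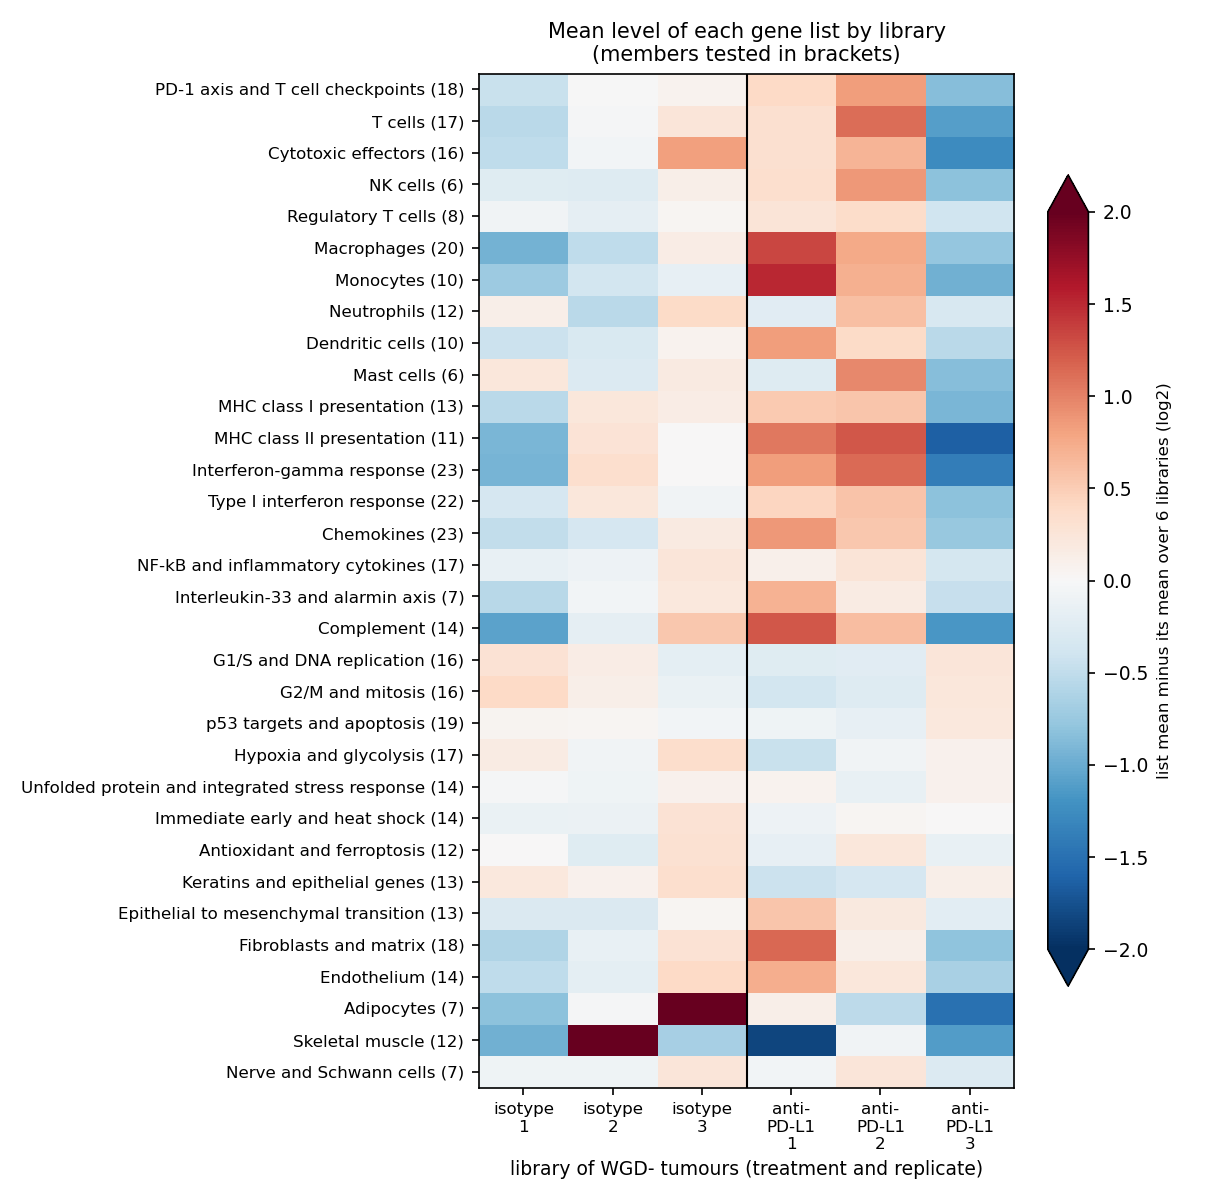
Mean level of each gene list in the 6 libraries, shown as the list's mean in a library minus its mean over the 6 libraries (log2 scale, colours end at -2 and 2), with the number of members tested in brackets. Anti-PD-L1 replicates 1 and 2 are red for the macrophage, antigen presentation and interferon-gamma lists (interferon-gamma mean levels 6.73 and 7.01) while replicate 3 is blue (4.50), and skeletal muscle is dark red in isotype replicate 2 alone.

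The promoters of 3 interferon-gamma response genes are shown because the members moved together across libraries. The windows shown hold letters that match sites through which interferons are known to act. Sequences are RefSeq windows of GRCm38.p6, 250 bases before to 50 after a transcription start, 5′ to 3′ on the gene's strand, with capitals for matches to TTCNNNGAA, the gamma-activated site of interferon-gamma signalling, or GAAANNGAAA, the core of the interferon-stimulated response element, on either strand.
Irf1 (chr11:53769764-53770063, plus strand): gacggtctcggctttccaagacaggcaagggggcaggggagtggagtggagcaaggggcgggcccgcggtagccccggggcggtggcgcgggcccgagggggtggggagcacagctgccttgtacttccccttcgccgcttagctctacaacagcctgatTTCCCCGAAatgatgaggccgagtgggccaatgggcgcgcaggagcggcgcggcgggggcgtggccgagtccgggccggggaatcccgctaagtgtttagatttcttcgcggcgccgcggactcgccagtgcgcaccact
Cxcl10 (chr5:92348840-92349139, minus strand): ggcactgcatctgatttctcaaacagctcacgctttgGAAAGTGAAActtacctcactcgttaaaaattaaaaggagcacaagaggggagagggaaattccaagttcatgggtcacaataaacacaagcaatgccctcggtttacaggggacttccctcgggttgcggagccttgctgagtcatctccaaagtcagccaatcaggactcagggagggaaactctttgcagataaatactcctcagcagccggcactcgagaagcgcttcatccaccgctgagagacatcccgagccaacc
Gbp5 (chr3:142496684-142496983, plus strand): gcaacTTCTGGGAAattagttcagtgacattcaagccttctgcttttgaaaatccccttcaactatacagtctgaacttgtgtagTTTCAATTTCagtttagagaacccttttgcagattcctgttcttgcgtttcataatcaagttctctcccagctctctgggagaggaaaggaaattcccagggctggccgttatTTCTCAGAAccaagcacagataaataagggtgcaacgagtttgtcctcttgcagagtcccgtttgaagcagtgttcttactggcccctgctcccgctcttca

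The Irf1 window shown holds 1 match to the first motif, and another Irf1 window holds neither motif. Cxcl10 holds 1 match to the second, and Gbp5 holds 2 of the first and 1 of the second. Of the 23 list genes 15 had a window. TTCNNNGAA was found for 8 of the 15 and GAAANNGAAA for 12. Of all genes with a window 9.55% and 3.99% held them, and of all 32851 windows 8.3% and 3.44%, since a gene can have several windows. The windows of Cxcl9 and Cd274 hold neither string of letters, which says nothing about sites outside them. A match describes letters and is not evidence that a factor bound in these tumours.

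Antigen presentation genes followed the interferon-gamma list. MHC class II genes, which present peptides to CD4+ T cells, had 10 of 11 positive, a median of 0.45 and 0 that separated the groups. Ciita, the master regulator of class II transcription, had 2.18, 3.93 and 3.17 under isotype and 4.89, 5.36 and 1.57 under anti-PD-L1 (0.85, SE 1.03, limma adjusted p = 0.947). H2-Ab1, a class II beta chain named after its values were seen, had 6.79, 8.25 and 8.03 against 8.78, 9.35 and 5.84. Ctss, the cathepsin that trims the class II chaperone, had 7.25, 8.18 and 8.42 against 9.77, 9.32 and 7.13. Replicate 3 was the lowest of the 6 libraries in 11 of 11 class II genes, and the median was -0.06 without replicate 2 and 1.41 without replicate 3. MHC class I genes had a median of 0.07 with 11 of 13 positive, and Psmb10, an immunoproteasome subunit, had 6.97, 7.59 and 7.19 against 8.01, 8.09 and 6.63. Type I interferon response genes, among them antiviral effectors, had a median of 0.07 with 18 of 22 positive. Oas2, an antiviral sensor of double-stranded RNA, had 3.96, 4.70 and 4.39 against 5.52, 5.68 and 3.26, and Rsad2, which encodes viperin, had 4.33, 4.85 and 5.0 against 4.43, 4.90 and 3.89. Replicate 3 was lowest in 11 of 13 class I and 21 of 22 type I interferon genes. Without replicate 2 both medians were negative, -0.15 and -0.09, and without replicate 3 they were 0.59 and 0.57.

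Chemokine genes had 18 of 23 positive and a median of 0.42, which was 0.03 without anti-PD-L1 replicate 1 and 0.94 without replicate 3. Ccl12, a ligand of Ccr2, was the 1 member that separated the groups (against 3.17% of all genes). It had 4.38, 3.36 and 4.01 under isotype against 6.04, 4.67 and 4.45 under anti-PD-L1 (1.14, SE 0.50, limma adjusted p = 0.945). Ccl8, another monocyte chemokine named after its values were seen, had 8.15, 7.84 and 9.22 against 11.16, 9.96 and 8.51. Cxcl2, which draws neutrophils, had the opposite sign at 4.36, 3.02 and 5.04 against 2.81, 3.47 and 2.85 (-1.09, SE 0.42, adjusted p = 0.945), with isotype replicate 2 inside the anti-PD-L1 range. Inflammatory cytokine genes had 9 of 17 positive and a median of 0.03. Within that list Il6, the interleukin-6 gene, had 0.93, 0.95 and 0.95 against 2.23, 1.58 and 1.15, and Il1a, an interleukin-1 gene, had 1.69, 2.08 and 2.08 against 1.42, 1.62 and 0.75. Both separated the groups, in opposite directions (against 3.17% of all genes higher and 2.28% lower), and neither was called. In the alarmin list, Il18, a cytokine gene of macrophages and epithelia, had 1.72, 1.32 and 2.0 against 3.28, 3.09 and 1.57.

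**Figure D4:**
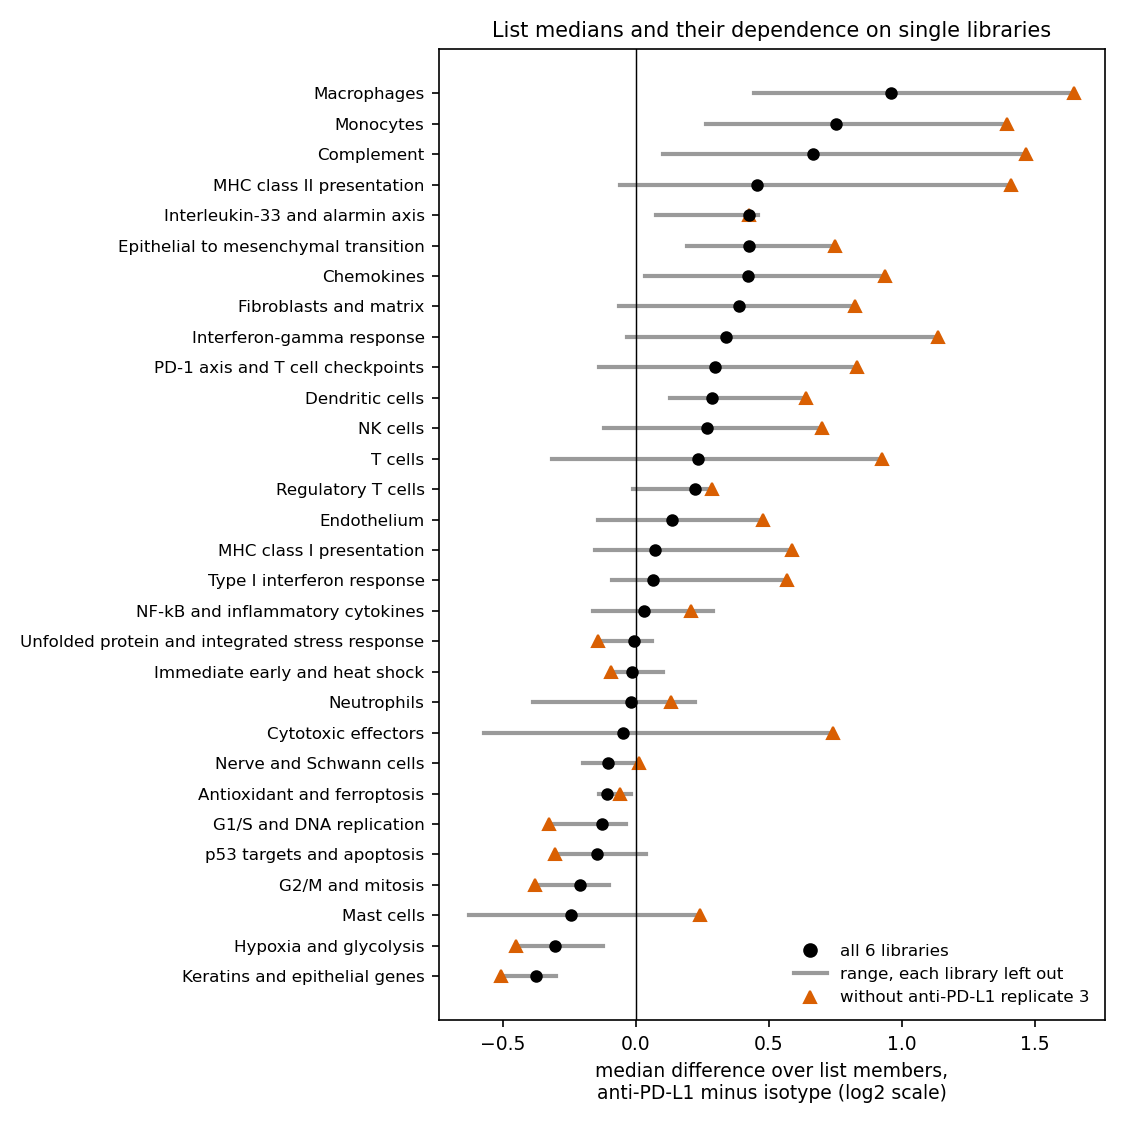
Median difference of each list's members, anti-PD-L1 minus isotype (log2 scale), over all 6 libraries (black), its range when each library is left out (grey) and its value without anti-PD-L1 replicate 3 (orange). The macrophage median is 0.96 and 1.65 without that library, and the keratin median is -0.37 and -0.51 without it; the skeletal muscle and adipocyte lists and lists of under 6 tested members are not drawn.

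Tumour cell lists had the opposite sign. All 13 keratin and epithelial genes had a negative difference, with a median of -0.37 and 0 that separated the groups. Krt8, a keratin of luminal epithelium, had 9.58, 9.94 and 10.11 under isotype and 8.96, 9.17 and 9.72 under anti-PD-L1 (-0.59, SE 0.21, limma adjusted p = 0.945). Krt14, a basal keratin, had 10.49, 9.74 and 10.07 against 8.36, 9.15 and 10.02 (-0.92, SE 0.37). Replicates 1 and 2 lay under all isotype libraries in both keratins and replicate 3 lay among them. Without replicate 3 the 2 keratins were called (-0.81 and -1.34, limma adjusted p = 0.0336 and 0.0456). They were the only 2 of 13 called, against 0.802% of all genes called lower in that fit, which describes replicates 1 and 2 alone. With replicate 3 included 0 of the 13 were called.

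Proliferation genes shared that direction. All 16 G2/M genes had a negative difference, with a median of -0.21, and 15 of 16 G1/S and replication genes did, with a median of -0.13. Plk1, a mitotic kinase, had 7.02, 6.80 and 6.43 against 5.84, 6.25 and 6.63, and Aurka, the Aurora A kinase, had 7.17, 7.05 and 6.44 against 5.98, 6.26 and 6.96. The groups overlapped through isotype replicate 3 and anti-PD-L1 replicate 3. Pcna, the clamp of DNA polymerase, had 9.18, 8.96 and 8.69 against 8.65, 8.49 and 8.86, and Mcm5, a subunit of the replicative helicase, had 7.40, 7.31 and 7.11 against 6.47, 6.85 and 7.34. Isotype replicate 1 was the highest library in 13 of 16 G2/M genes (17.7% of all genes), and anti-PD-L1 replicate 1 the lowest in 11 (26.9% of all genes).

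Glycolysis and hypoxia genes were negative in 17 of 17, with a median of -0.30. Ldha, lactate dehydrogenase, had 11.76, 11.70 and 11.74 against 11.09, 11.38 and 11.66 (-0.36, SE 0.19), with every anti-PD-L1 library under every isotype library. It was the 1 of 17 that separated the groups, against 2.28% of all genes, and 0 of the 17 were called. Aldoa, an aldolase, had 11.57, 11.74 and 11.77 against 10.93, 11.47 and 11.58. Anti-PD-L1 replicate 1 was the lowest library in 15 of the 17 and isotype replicate 3 the highest in 11 (10.4% of all genes). Genes of p53 targets and apoptosis had 8 of 19 positive, with a median of -0.15. Mcl1, a survival factor, had 8.39, 8.16 and 8.62 against 8.92, 8.96 and 8.39, and Casp8, the caspase of death receptors, had 5.62, 5.70 and 5.56 against 6.31, 6.18 and 5.35. Anti-PD-L1 replicate 1, with the lowest summed keratin (2162 CPM) and glycolysis RNA (15225 CPM) of the 6, held the highest summed macrophage RNA, and the part of either in the other was not tested.

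Stromal lists were led by anti-PD-L1 replicate 1. Fibroblast and matrix genes had 14 of 18 positive, a median of 0.39 and replicate 1 highest in 14. The median was -0.06 without replicate 1 and 0.82 without replicate 3. Fbn1, the fibrillin gene, had 3.93, 4.57 and 4.80 against 6.31, 4.93 and 4.58, and Pdgfra, a growth factor receptor of fibroblasts, had 4.55, 4.12 and 4.48 against 5.09, 5.10 and 4.30. Flt1, a VEGF receptor of endothelium, separated the groups at 5.54, 5.17 and 5.34 against 6.04, 5.86 and 5.63 (0.50, SE 0.24, limma adjusted p = 0.945). It was the 1 of 14 endothelial genes tested to do so, against 3.17% of all genes. In that list 11 were positive. The list median was 0.14, which was -0.14 without anti-PD-L1 replicate 1 and 0.48 without replicate 3.

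RNA of other tissues was high in single libraries. Skeletal muscle genes were highest in isotype replicate 2 in 12 of 12, with a summed CPM of 5222 there and 32.4 to 176 in the other 5 libraries. Mylpf, a myosin light chain of fast muscle, had 3.78, 8.08 and 3.66 against 2.57, 4.30 and 3.34, and Acta1, muscle actin, had 4.16, 10.30 and 4.37 against 2.71, 6.03 and 3.86 (Acta1 named after its values were seen). Adipocyte genes were high in isotype replicate 3, with a summed CPM of 822 there and 27 to 241 elsewhere, and Car3, a carbonic anhydrase of fat and muscle, had 1.53, 7.41 and 6.81 against 3.08, 1.34 and 0.75. RNA of muscle and fat thus differed between libraries of 1 group, and its part in the Apoc1 difference was not tested. 

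The effect of anti-PD-L1 in WGD- tumours was set against that in WGD+ tumours as an interaction, the WGD- difference minus the WGD+ difference. By limma 0 of 13840 genes were called and 232 (1.68%) had an unadjusted p under 0.05, and voom on the recovered reads called 0 as well. In WGD+ tumours alone anti-PD-L1 against isotype gave 0 calls, with 504 genes (3.64%) at an unadjusted p under 0.05, 305 higher (2.2%) and 199 lower (1.44%). Apoc1 had an interaction of -2.13 (SE 0.37, limma adjusted p = 0.479), so a difference of its response between the tumour types did not pass the threshold. Its WGD+ levels of 0.28, 0.71 and 0.14 under isotype and 0.33, 0.49 and 0.12 under anti-PD-L1 were near 0 in both groups.

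Other genes named for the interaction had the smallest p among genes whose WGD- groups did not overlap and whose higher WGD- group averaged at least 3. That choice favours genes with a clear WGD- difference. These genes were likewise not called, each with an adjusted p of 1. Vipas39 had WGD+ levels of 5.44, 5.28 and 5.35 under isotype and 5.28, 5.23 and 5.26 under anti-PD-L1, against a WGD- difference of 0.43 (interaction 0.53, SE 0.17). Fkbp5, a glucocorticoid-induced chaperone, had a difference of 0.38 in WGD- and -0.36 in WGD+ tumours, and Fam53b, a regulator of Wnt signalling, 0.37 and -0.53. On the lower side Prl2c5, a prolactin family gene, had -0.45 and 1.16, Cd320, the receptor for transcobalamin, -0.44 and 0.26, and Abhd6, a lipid hydrolase, -0.49 and 0.13. Prl2c5 has near-identical copies that can share its reads. The macrophage list had a median of 0.96 in WGD- and 1.18 in WGD+ tumours, and the interferon-gamma list 0.34 and 1.21, with 0 members of either past the interaction threshold.

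Anti-PD-L1 was also compared directly with anti-CD8, which depletes CD8+ T cells, in WGD- tumours, with 3 libraries against 2. The only gene called of 13840 (0.00723%) was Kcnk1, a potassium channel gene (chromosome 8, 125995170 to 126030685), which was lower under anti-PD-L1. It had 4.74, 4.49 and 4.94 under anti-PD-L1 and 5.93 and 5.99 under anti-CD8 (-1.24, SE 0.17, limma adjusted p = 0.0293), and its isotype libraries at 5.22, 5.06 and 4.76 lay with the anti-PD-L1 libraries. The call did not hold without anti-PD-L1 replicate 1 (adjusted p = 0.139) or 2 (0.143), without either anti-CD8 library (0.328 and 0.531), with the replicate number as a block (0.198), with only these libraries in the fit (0.308), without the filter on low values (0.064) or without the trend and robust steps (0.081). Without anti-PD-L1 replicate 3, 2625 genes (19%) were called, 1566 higher (11.3%) and 1059 lower (7.65%).

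More genes had an unadjusted p under 0.05 here than against isotype, 3117 (22.5%), of which 1599 were higher (11.6%) and 1518 lower (11%). Groups that do not overlap were found for 2134 genes higher under anti-PD-L1 (15.4%) and 2915 lower (21.1%). Groups of 3 and 2 libraries separate by chance more often than groups of 3 and 3, so these shares cannot be set against those for isotype. Cd8a lay at 0.67 and 0.38 and Cd8b1 at 0 and 0 under anti-CD8, and anti-PD-L1 replicate 3, at 0.93 and 0.61, was the nearest of the anti-PD-L1 libraries. Of 23 interferon-gamma genes 22 were higher in all 3 anti-PD-L1 libraries than in both anti-CD8 libraries, 0 were called and the median was 2.55. Cxcl9 lay at 2.33 and 1.85 under anti-CD8, beneath even the 3.97 of replicate 3, and Cd274 at 2.70 and 2.58 (difference 2.88, SE 0.82, limma adjusted p = 0.127). Among macrophage genes 10 of 20 were separated in that direction, with a median of 1.86.

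Genes of the smallest p in that comparison are given next, and each had a limma adjusted p of 0.118. Srgn, the proteoglycan of haematopoietic granules, had 7.54, 7.34 and 6.21 under anti-PD-L1 and 5.43 and 5.0 under anti-CD8. Slc15a3, a lysosomal peptide transporter of myeloid cells, had 5.60, 5.47 and 4.83 against 3.64 and 3.35, and Gpr35, a receptor of immune and epithelial cells, had 4.35, 4.84 and 3.79 against 3.03 and 2.80. Traf1, an adaptor of tumour necrosis factor receptors, had 3.96, 4.53 and 3.56 against 2.79 and 2.26. In all 4 replicate 3 lay above both anti-CD8 libraries, which the choice of genes requires. On the lower side Eda2r, a p53-responsive receptor, had 3.39, 3.01 and 3.95 against 5.14 and 5.29, Psat1, an enzyme of serine synthesis, had 6.57, 6.74 and 6.67 against 7.40 and 7.54, and Nudt4, a phosphohydrolase of inositol pyrophosphates, had 7.17, 7.32 and 7.25 against 8.05 and 7.91. In these 3 genes the isotype libraries, at 3.80, 3.76 and 3.31 for Eda2r, 6.85, 6.77 and 6.48 for Psat1 and 7.42, 7.48 and 7.19 for Nudt4, lay with or near the anti-PD-L1 libraries rather than the anti-CD8 libraries.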

How the data were processed

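RNA was measured by bulk sequencing of stranded TruSeq mRNA libraries made from 500 ng of total RNA, per the labels' protocols. Per the submitters' processing notes, the authors aligned reads to mm10 with STAR 2.5.1b and used edgeR. Neither the annotation nor the counting tool is given in the sources used here. The authors deposited log2 values of depth-scaled read counts (CPM) for 20185 genes in 17 libraries of the antibody experiment. Read as log2(CPM + 1) with a trimmed mean of M values (TMM) factor per library, 0.965 to 1.06 in the 6 libraries, they returned whole reads, to a tolerance of 0.1, in 100% of values, and these set the depth. Library sizes rest on these recovered reads. Where a count test was run on them, as an alternative, it was voom, and it called 0 genes against isotype and 1 against anti-CD8.

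Symbols were matched to GENCODE M21 (98.5%), and 25 symbols turned into dates, at most 0.185% of a library's reads, were left out. Positions use GENCODE M21 (mm10). Genes above 1 CPM in at least 3 of the 17 libraries were tested (13840). The deposited values were fitted with limma 3.58.1 in R 4.3.3, with a mean per group over all 6 groups, a variance trend with mean level and robust moderation, and p-values were adjusted by Benjamini-Hochberg over all genes of a contrast. All groups share an estimate of the spread. The fit was tested on simulated data. The replicate number was not used as a block, because the labels do not say what it marks.

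Gene lists are described by counts and medians, with no test of a list. A summed CPM takes every list member with values, tested or not. The genes named are the targets of the antibodies; up to 10 genes each way with no overlap between groups and a mean of at least 3 in the higher group, called genes first and then by p; the 2 members of each list with the smallest p; and up to 4 each way for the other contrasts by the same conditions. Some genes that the rule names are not reported here, and genes outside the rule are marked as named after their values were seen. The libraries, lists and rules were chosen with earlier results of these data known.

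Alternatives were no filter, log2(CPM + 0.25), quantile normalization, CPM without TMM, only the libraries compared, the replicate number as a block with all or only the compared libraries, no trend and no robust step, voom, leaving out each library and leaving out any library that stands apart. The tables of the other 2 experiments, also deposited as log2 values, were used only for Apoc1 and Alb.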

Additional observations from a re-analysis of the deposited data

How the results depend on the processing

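Against isotype, the 1 call became 2 without the filter on low values and 0 on log2(CPM + 0.25), with only the compared libraries, with the replicate block in those libraries and with voom. It was 1 with quantile normalization, without TMM, without the trend and robust steps and with the replicate block in all libraries. Leaving out a library gave 1 to 525 calls, the higher number without anti-PD-L1 replicate 3. Against anti-CD8 the 1 call became 0 without the filter, with only the compared libraries, with the replicate block and without the trend and robust steps, and 3655 with the replicate block in the compared libraries, where replicate 3 has no partner and carries no weight. Leaving out a library gave 0 to 2625. The interaction count was 0 under every alternative run. Where counts differ, the cause was not tested, except that a fit of few libraries has fewer degrees of freedom.

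Same-numbered libraries did not all deviate together (r = -0.317, 0.171 and -0.433 for numbers 1, 2 and 3), and the labels do not say what a number marks. Apoc1 kept its sign throughout, at an adjusted p of 0.00807 with the replicate block and of 1 with the block in the compared libraries only. The alternative without libraries that stand apart gave no value, because no library did.

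Differences of 13 uncalled genes changed sign when a library was left out: Alb -3.68 to 0.34, Cd274 -0.20 to 1.07, Cd3e -0.41 to 0.93, Cd8a -0.52 to 1.30, Cd8b1 -0.31 to 1.14, Cxcl10 -0.29 to 0.61, Cxcl9 -0.37 to 1.72, Gbp5 -0.0302 to 1.65, Gzmb -1.10 to 1.12, H2-Ab1 -0.38 to 1.38, Ifng -0.34 to 0.73, Klrc1 -0.13 to 1.25 and Pdcd1 -1.08 to 0.59. Apoc1 rests on 7 to 13 reads per anti-PD-L1 library, which limits how well its fold is known.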

Other observations

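A few gene groups are given here as values only. Mast cell genes had 2 of 6 positive and a median of -0.25 between anti-PD-L1 and isotype, with replicate 2 highest in 4 of 6. Plasma cell genes had 3 of 5 positive and a median of 0.26, and Xbp1, the transcription factor of secretory cells, had 5.75, 6.05 and 6.13 under isotype against 6.83, 6.57 and 5.87 under anti-PD-L1. Crlf2, a receptor chain for the alarmin TSLP, had 4.81, 5.41 and 5.78 against 5.68, 5.83 and 5.51. Genes of the unfolded protein and integrated stress response had 7 of 14 positive with a median of -0.01, immediate early and heat shock genes 7 of 14 with -0.02, and antioxidant and ferroptosis genes 4 of 12 with -0.11. Mammary secretory genes were highest in anti-PD-L1 replicate 1 in 5 of 5 and lowest in replicate 3 in 5 of 5. Erythroid genes were highest in isotype replicate 3 in both members tested. Summed over the 3 members with values, CPM was 36 there and 2.7 to 5.5 in the other 5 libraries.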
